A study of Mus musculus with 2 samples.

Results

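The immunoglobulin light chain variable segments were taken as every gene whose mouse symbol starts with Igkv (kappa) or Iglv (lambda). There were 106 such genes among 43346 genes with an Ensembl identifier, 103 of them Igkv on chromosome 6 and 3 of them Iglv on chromosome 16. The annotation classed 100 as V genes and 6, all Igkv, as V pseudogenes. GENCODE release M21, the annotation used here, holds 163 light chain V symbols. The 57 without a row in the deposited tables, 54 of them pseudogenes, were not analysed here. Polyadenylated spleen RNA had been sequenced from 1 mouse, a C57BL/6J male of 10 weeks with no treatment or genetic change named in the labels, as 2 libraries labelled technical replicates 1 and 2. Per the labels, replicate 2 was made in 2015, after the publication that used replicate 1. Each group is therefore 1 library of the same animal, and every comparison below sets 1 library against 1 other, with no p-value.

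A light chain pairs with a heavy chain to form an antibody or a B cell receptor. During B cell development the RAG recombinase joins a V segment to a J segment, and splicing then joins the rearranged exon to the constant gene, Igkc for kappa or an Iglc gene for lambda. A B cell as a rule makes a single light chain, so in a tissue rich in B cells the V transcripts sample the rearrangements of many cells. The segment ends in a conserved cysteine codon and a few further codons, which form the start of the third complementarity determining region (CDR3), the loop at the join. In bulk RNA, fewer cells that use a segment and less RNA per cell cannot be told apart.

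The end of the coding sequence is the germline part of the CDR3 that a segment brings to the join. Shown, because these segments lead the results, are the 3′ ends of the 3 Igkv segments with the highest TPM (a level per transcript length and library depth) and of the 3 Iglv segments, from the cysteine codon, in capitals, to the last coding base, read 5′ to 3′ on the coding strand from GENCODE release M21 on GRCm38, the assembly also called mm10.
Igkv1-117: TGCtttcaaggttcacatgttcctcc
Igkv1-110: TGCtctcaaagtacacatgttcctcc
Igkv10-96: TGCcaacagggtaatacgcttcctcc
Iglv1: TGTgctctatggtacagcaaccatttc
Iglv2: TGTgctctatggtacagcacccatttc
Iglv3: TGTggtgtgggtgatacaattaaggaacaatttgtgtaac

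Each of these 3 Igkv ends has 7 whole codons after the cysteine, as do 72 of the 97 Igkv segments whose end was read. Iglv1 and Iglv2 have 8. Iglv3 has 11, followed by an in-frame stop codon, taa, in the M21 gene model. At 370 coding bases this model is longer than the 366 bases of the model in the deposited tables. A glutamine codon, caa or cag, follows the cysteine directly in Igkv10-96 and in 59 of the 97 Igkv segments, which together held 57.8% of the Igkv counts in replicate 1. The 97 segments have 87 different ends. Among them 19 segments, in groups of 2 or 3, share an end with another, such as Igkv8-24 and Igkv6-25, which belong to different families.

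Close copies matter for the counts, since reads that fit several genes were divided among them. The pair with the most counts, Igkv1-117 (chr6:68121046-68121827) and Igkv1-110 (chr6:68270485-68271267), both on the plus strand, differs at 10 of 359 coding bases. The last 300 coding bases of both are shown, with the bases that differ in capitals.
Igkv1-117: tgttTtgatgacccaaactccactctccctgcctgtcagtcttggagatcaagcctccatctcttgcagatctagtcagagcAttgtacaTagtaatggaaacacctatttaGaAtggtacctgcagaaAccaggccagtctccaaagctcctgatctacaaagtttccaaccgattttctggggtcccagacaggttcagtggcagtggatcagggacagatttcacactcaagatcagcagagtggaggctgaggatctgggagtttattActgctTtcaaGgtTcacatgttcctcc
Igkv1-110: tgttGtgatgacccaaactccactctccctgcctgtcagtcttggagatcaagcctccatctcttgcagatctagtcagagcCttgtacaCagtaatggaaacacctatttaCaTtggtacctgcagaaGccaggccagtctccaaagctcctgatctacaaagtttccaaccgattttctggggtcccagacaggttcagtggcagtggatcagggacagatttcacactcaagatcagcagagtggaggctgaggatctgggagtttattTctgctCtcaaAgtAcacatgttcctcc

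Iglv1 (chr16:19085017-19085500) and Iglv2 (chr16:19260401-19260859), both on the minus strand, differ at 10 of 348 aligned coding bases, 8 of them in the last 300, shown in the same way.
Iglv1: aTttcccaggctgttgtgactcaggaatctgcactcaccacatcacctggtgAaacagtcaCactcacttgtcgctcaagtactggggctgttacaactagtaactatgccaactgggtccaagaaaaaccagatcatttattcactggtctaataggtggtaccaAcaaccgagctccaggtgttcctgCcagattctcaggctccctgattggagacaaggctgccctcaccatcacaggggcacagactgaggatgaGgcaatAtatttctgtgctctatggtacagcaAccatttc
Iglv2: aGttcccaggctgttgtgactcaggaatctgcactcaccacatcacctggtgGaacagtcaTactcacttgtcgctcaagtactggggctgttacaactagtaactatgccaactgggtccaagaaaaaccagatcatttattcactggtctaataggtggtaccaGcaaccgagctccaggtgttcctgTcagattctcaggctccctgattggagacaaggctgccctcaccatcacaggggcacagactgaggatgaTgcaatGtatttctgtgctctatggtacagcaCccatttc

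Iglv3, the remaining lambda segment (chr16:19241207-19241690), had no nearer relative among the members than 66.9% identity. Within an Igkv family the median identity between segments was 89.5%, over 521 pairs, and between families 67.6%, over 4135 pairs. The deposited posterior standard deviation, which carries the uncertainty of dividing shared reads, reached at most 6.76 counts, for Igkv1-117 and Igkv1-110 alike, against counting standard deviations of 54.3 and 52.4 counts. It was 0 for 70 members with a count in replicate 1. Of 100 members compared, 51 had a relative of at least 95% identity, and 24 of those had a posterior standard deviation above 0.

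The expected counts on genes came to 27528824 in replicate 1 and to 3806381 in replicate 2, which is 7.23 times fewer. B cell transcripts were present in both. All 9 genes of a B cell marker list reached 1 TPM in each library, with a summed level of 3920.4 TPM in replicate 1 and 1298.9 TPM in replicate 2. Library sizes were scaled by TMM (a trimmed mean of gene ratios), which put every log2 ratio 1.26 above that under total counts. A gene was called when the exact 95% interval of its ratio lay wholly beyond 1.5-fold, and 12467 genes entered, those that averaged at least 1 TPM and had 50 or more counts in all.

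In replicate 1 the light chain V segments held 42140 expected counts and 14144.6 TPM, and 99 of the 106 had at least 1 count. In replicate 2 they held 1 count, on Igkv1-117, at 0.76 TPM, and the other 105 had none. At the share of counts they had in replicate 1, replicate 2 would have held 5827. The summed log2 ratio of replicate 2 over 1 was -11.25 (95% interval -16.55 to -8.77), which is 2429-fold lower with an interval of 436 to 95900. The Igkv genes went from 37467 counts to 1 and the Iglv genes from 4673 to 0. By the 95% interval the Iglv genes were at least 73.0-fold lower. With the 0 set to a floor of 3 counts in the library, the value was 89.8-fold. These limits cover only the error of counting, since reads copied by PCR are not independent molecules.

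Of the 106 members, 74 passed the filter, which they did through replicate 1, and 68 of these were called lower and 0 higher. Among all tested genes 32.6% were called lower and 28.0% higher. Under total counts, 58.5% of all tested genes were called lower, 14.6% higher, and all 74 tested members lower. The median log2 ratio, with counts of 0 set to the floor, was -0.27 over all tested genes and -2.61 over the tested members. For the members this is a bound and not a measured ratio. It is set by the floor and their counts in replicate 1, since 73 of the 74 had 0 in replicate 2. The 6 tested members that were not called had between 56 and 92.64 counts in replicate 1 and 0 in replicate 2, too few to place the whole interval beyond 1.5-fold. They were Igkv4-61, Igkv6-14, Igkv3-1, Igkv4-79, Igkv1-133 and Igkv4-69. A count of 0 in replicate 2 was found for 73 of the 74 tested members and for 6.7% of all tested genes. In the plot of TPM in both libraries, all but 1 of the tested members lie at 0 for replicate 2.

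**Figure D1:**
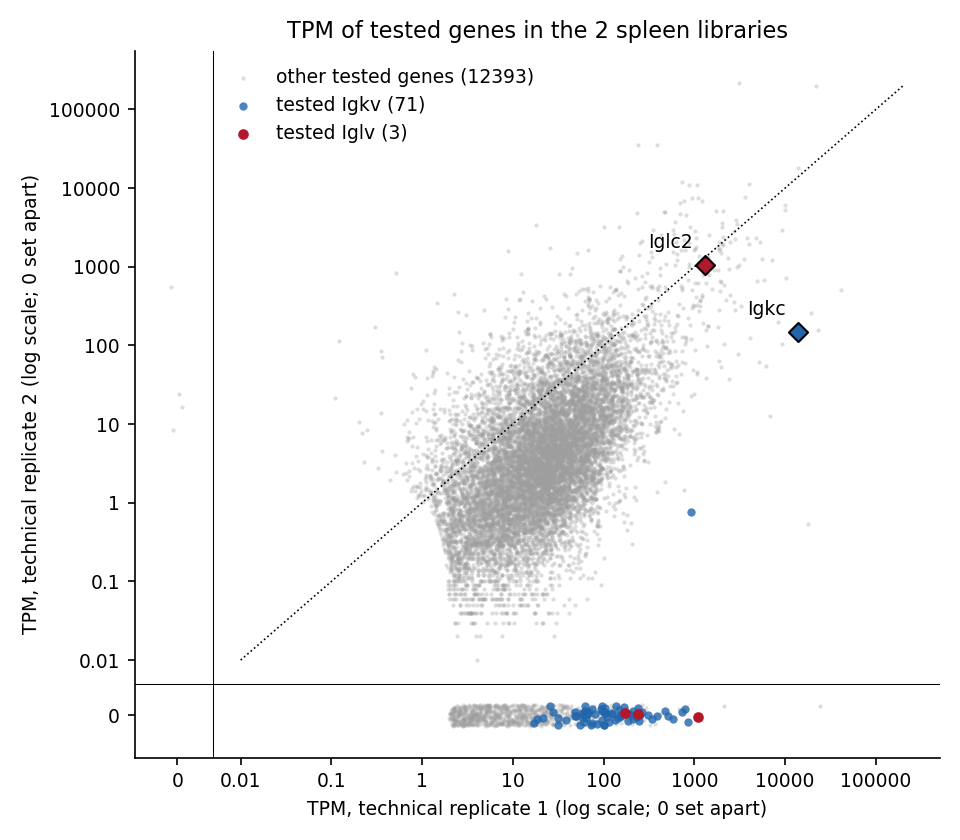
TPM of each of the 12467 tested genes in technical replicate 1 (x axis) and technical replicate 2 (y axis), both on log scales with 0 set apart and points at 0 spread slightly so that they can be seen. The 71 tested Igkv (blue) and 3 tested Iglv (red) lie at 0 in replicate 2 except Igkv1-117 at 0.76 TPM, while the constant genes Igkc and Iglc2 (diamonds) lie at 150.01 and 1052.37 TPM. The dotted line marks equal TPM.

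The member genes are short, with a median length of 348 bases among those tested against 2404 bases over all tested genes. Their median effective length, the number of positions at which a fragment could start, was 158.8 bases in replicate 1, against 213.4 in replicate 2. Of 149 tested genes of 200 to 500 bases outside the antigen receptor loci, 25 or 16.8% were called lower and 88 were called higher. Of the 149, 25 had 0 counts in replicate 2, and the median log2 ratio was 1.90. These genes could pass the filter through either library, while the tested members passed through replicate 1, so the 2 sets are not alike in this. The median GC content was 48.3% over the tested members and 50.2% over all tested genes. The heavy chain V segments (Ighv, 175 genes), the partners of the light chain segments, went from 21841 counts to 2, a log2 ratio of -9.30 (-12.34 to -7.44).

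Constant genes lie at the other end of light chain transcripts, and those measured here had counts in replicate 2. Igkc (chr6:70726435-70726966), the only kappa constant gene, had 35940 counts and 13929.73 TPM in replicate 1 and 166 counts and 150.01 TPM in replicate 2. It was called lower at a log2 ratio of -3.64 (-3.87 to -3.42). Iglc2 (chr16:19198396-19200351), a lambda constant gene, had 10366 counts and 1305.11 TPM in replicate 1 and 2913 counts and 1052.37 TPM in replicate 2. It was called higher at 2.29 (2.23 to 2.34), and also under total counts, while its TPM was lower in replicate 2. Iglc1, Iglc3, Iglc4 and the lambda J segments were not analysed here, and whether Iglc2 took up reads of the like lambda constant genes was not tested. Lambda V segments can join to constant genes other than Iglc2. Iglv1, with 71.99% of the lambda V counts in replicate 1, lies downstream of Iglc2, both on the minus strand. Every lambda value below that sets V against C or kappa C against lambda C therefore holds for Iglc2 alone. Such a value pairs genes that need not share a transcript. The kappa J segments, Igkj1 to Igkj5, had 0 counts in both libraries, and at lengths of 36 to 43 bases their effective length was 0, so they could not have been counted.

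V segments made up 51.04% of the kappa counts on V and C genes in replicate 1 (95% Clopper-Pearson interval 50.68 to 51.40) and 0.599% in replicate 2 (0.0152 to 3.29), which is 1 of 167 counts. For the Iglv segments against Iglc2 the share was 31.07% (30.33 to 31.82) in replicate 1. In replicate 2 it was 0 of 2913, with an interval that reaches 0.127%. At the V to C ratios of replicate 1, which were 1.04 for kappa and 0.451 for lambda, the constant counts of replicate 2 would have come with 173 Igkv and 1313 Iglv counts. Replicate 2 thus held lambda constant counts with no count on a lambda V segment, as the plot of V and C counts shows.

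With 1 count in replicate 2, use of the segments could be described in replicate 1 only. Kappa segments held 88.91% of the light chain V counts (88.61 to 89.21) and 89.4% of the V TPM. On the constant genes the kappa share in replicate 1 was 77.61% by counts (77.23 to 77.99) and 91.4% by TPM. TPM divides by effective length, which in replicate 1 was 414.97 bases for Iglc2 and 134.8 for Igkc. In replicate 2 Igkc held 5.39% of the counts on the 2 constant genes (4.62 to 6.25).

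The 3 lambda segments were far from equal. Iglv1 had 3364 counts in replicate 1, Iglv2 had 727 and Iglv3 had 582, and all 3 had 0 in replicate 2. These were 71.99%, 15.56% and 12.45% of the lambda V counts. Per length, Iglv1 stood at 1086.78 TPM, Iglv2 at 239.16 TPM and Iglv3 at 172.45 TPM. Iglv1 had the highest TPM of all 106 members, although only 3 of the members are lambda. With the 10 differing bases shown above, Iglv1 and Iglv2 had a posterior standard deviation of 0, so the reads counted were assigned to 1 or the other.

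Among the kappa segments, use was broad and uneven. In replicate 1 the median Igkv stood at 63.4 TPM, 76 were above 10 TPM, 39 were above 100 TPM, and the highest, Igkv1-117, reached 910.33 TPM. The 3 segments with the most counts held 21.6% of the Igkv counts, the first 12 held 51.8% and the first 48 reached 90%. The inverse Simpson number, which counts how many equally used segments would give the same unevenness, was 31.6 by counts and 32.8 by TPM.

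In order of TPM in replicate 1, Igkv1-117 (910.33 TPM, 2953.30 counts) was followed by Igkv1-110 (847.88 TPM, 2750.70 counts) and Igkv10-96 (786.27 TPM, 2375.50 counts). Igkv5-39 came next at 731.17 TPM from 1416 counts, on a gene model of only 287 bases. Igkv1-135 had 575.43 TPM, Igkv15-103 had 515.69 TPM, Igkv9-120 had 480.44 TPM and Igkv14-111 had 389.78 TPM. Igkv8-24 stood at 342.35 TPM, Igkv12-44 at 310.97 TPM, Igkv6-15 at 263.14 TPM and Igkv8-30 at 251.18 TPM. Apart from the single count on Igkv1-117, all of these had 0 counts in replicate 2. With these 0 counts set to the floor of 3 counts, the values ran from 15.3-fold lower for Igkv6-15 to 52.9-fold lower for Igkv1-110. For Iglv1 the value was 64.6-fold lower. The exact intervals used for the calls gave weaker limits. Their upper ends, as log2 ratios, were -3.63 for Igkv6-15, -5.42 for Igkv1-110 and -5.72 for Iglv1.

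Starting from Iglv1, 9 of the first 10 neighbours in the TPM order differed beyond counting error, in that the exact interval of their ratio lay above 1. The exception was Igkv15-103 against Igkv9-120, at a ratio of 1.07 (0.999 to 1.15). Igkv1-117 and Igkv1-110 differed by a ratio of 1.07 (1.02 to 1.13). Over the whole order, only 10 of 98 neighbours differed in this way. Below about the tenth segment the order of single neighbours is therefore not resolved by the counts, as the plot of the leading segments shows.

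**Figure D2:**
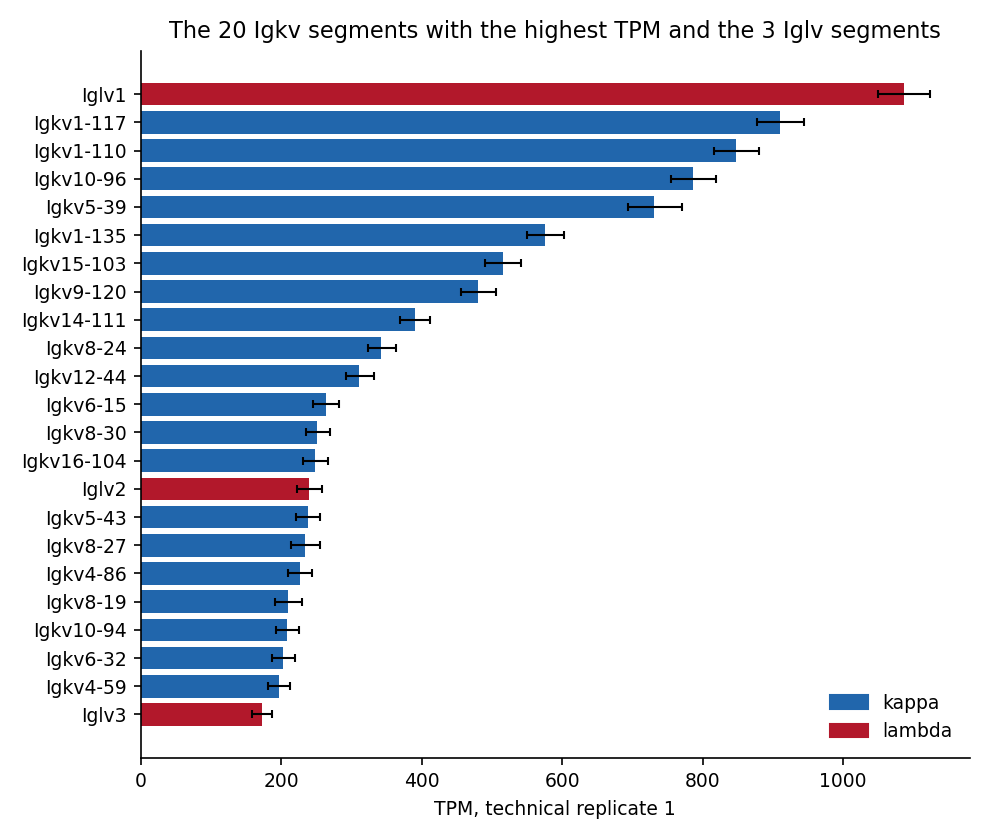
TPM in technical replicate 1 of the 20 Igkv segments with the highest TPM (blue) and the 3 Iglv segments (red). Error bars are exact 95% Poisson intervals of the count behind each value, on the TPM scale. Iglv1 leads at 1086.78 TPM and Igkv1-117 follows at 910.33 TPM.

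At the low end, 2 segments classed as V genes had 0 counts in replicate 1, Igkv1-35 and Igkv1-131, whose deposited upper bounds were 0.867 and 0.863 TPM. Igkv18-36, the only member of its family, and Igkv5-37 had 2 counts each. Of the 6 pseudogenes, Igkv4-83 had 1 count and Igkv11-106, Igkv1-115, Igkv17-134, Igkv2-95-2 and Igkv13-87 had 0. The 6 together held 0.00237% of the light chain V counts (6.01e-05 to 0.0132). Of these, Igkv2-95-2, with 123 bases, had an effective length of 0 in replicate 1 and Igkv13-87, with 126 bases, one of 1.21 bases, so their counts of 0 say nothing about use. These 2 V genes and 5 pseudogenes make up the 7 members with no count in replicate 1. Igkv3-1, the segment nearest to Igkc, had 83 counts and 25.58 TPM, and Igkv2-137, the farthest, had 452 counts and 136.96 TPM.

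The Igkv symbols name 19 families, groups of segments with similar sequence. Igkv1 held the largest share of the Igkv counts in replicate 1, 21.6% (21.1 to 22.0) from 11 segments, 8 of them detected. By TPM its share was 19.6%. Its counts were concentrated, as Igkv1-117 alone gave 36.6% of them and the median segment of the family had 56 counts. Igkv4 had the most segments, 27, all detected, and held 12.5% (12.2 to 12.9). That is 26.2% of the segments, and its leading segment, Igkv4-86, gave 13.9% of the family's counts at 225.81 TPM. So the family with the most segments and the family with the most counts were different ones.

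Igkv8 and Igkv6, with 9 segments each, followed at 9.62% and 8.25%, led by Igkv8-24 and Igkv6-15. Igkv10 reached 8.14% from 3 segments, 77.9% of it from Igkv10-96. Igkv5 held 7.02% by counts and 8.96% by TPM, led by Igkv5-39. Igkv12, led by Igkv12-44, held 5.48% and Igkv14, led by Igkv14-111, held 5.39%. Together the 8 families with at least 5% held 78.0% of the counts.

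A further 7 families had between 1% and 5%. Igkv9 held 4.90%, of which Igkv9-120 gave 82.0%. Igkv3 held 4.26% spread over 9 segments, and its leading one, Igkv3-2 at 106.34 TPM, gave 21.6% of that. Igkv15 held 4.16% through its only segment, Igkv15-103. Igkv17 held 2.16%, led by Igkv17-127 at 156.72 TPM, and Igkv2 held 2.07%, led by Igkv2-137. Igkv16 and Igkv19 have a single segment each, Igkv16-104 at 248.38 TPM and Igkv19-93 at 143.64 TPM, and held 2.02% and 1.14%. Igkv7, Igkv13, Igkv11 and Igkv18 were each below 1%, from 0.715% down to 0.00534%. In the plot of family shares, Igkv1, Igkv10 and Igkv15 stand well above their share of the segments and Igkv4 and Igkv3 below it.

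**Figure D3:**
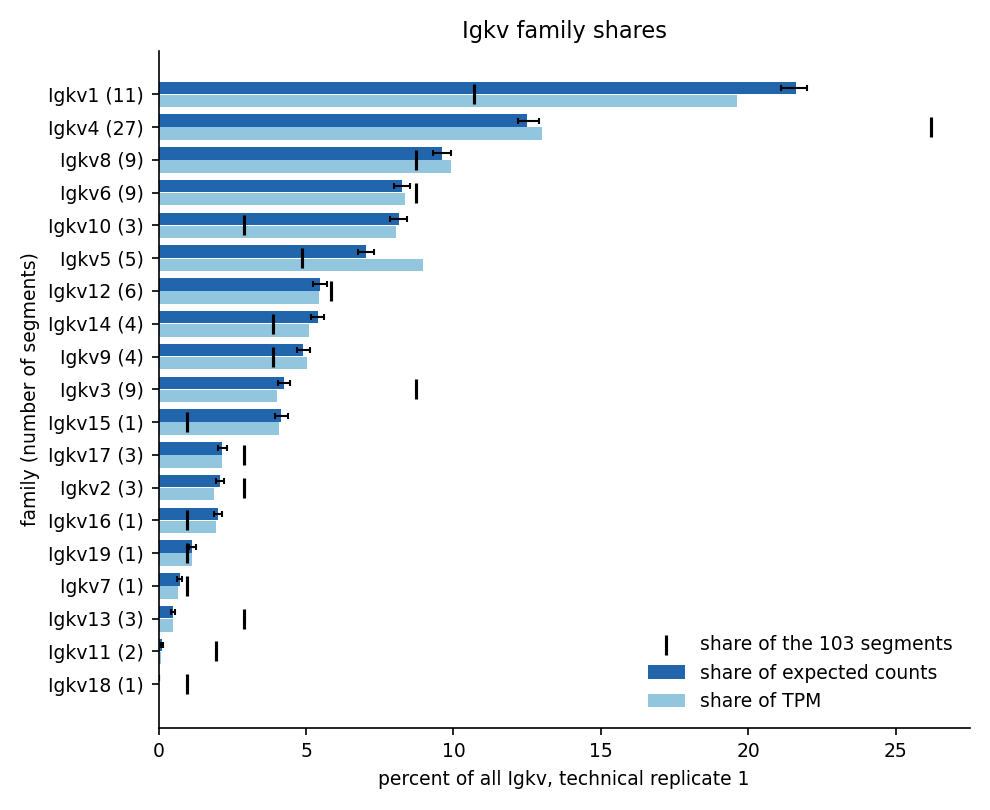
Share of all Igkv expected counts (dark bars, with exact 95% Clopper-Pearson intervals) and of Igkv TPM (light bars) held by each of the 19 families in technical replicate 1, with black marks for the family's share of the 103 segments. Igkv1 leads at 21.6% of the counts from 10.7% of the segments, while Igkv4 holds 12.5% from 26.2%.

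The Igkv genes span 3148.7 kb, from 22.3 to 3170.2 kb before Igkc. Segments in the orientation of Igkc join it by deleting the DNA between, and segments in the opposite orientation join by inversion. The locus was divided into 4 windows of 787.2 kb, counted from the Igkc end. The first held 32 segments and 22.9% of the Igkv counts in replicate 1, the second 25 segments and 20.2%, the third 24 segments and 21.9%, and the farthest 22 segments and 35% (34.5 to 35.5). By TPM the farthest window held 32.8%.

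Few segments carried the larger share of the farthest window. It holds Igkv1-117, Igkv1-110, Igkv1-135, Igkv9-120 and Igkv14-111, and its mean of 596 counts per segment stood against 268 in the first window. Its median was 208 counts, between the 192 of window 1 and the 225 of window 2, counted from Igkc. Windows 1 and 2 held 0 pseudogenes, while window 3 and the farthest window held 3 each. In the farthest window all 3 had 0 counts, which lowers its median, and a median over V genes alone was not computed. By TPM the farthest window had the highest median, 74.0, against 71.4, 72.5 and 49.5 in windows 1, 2 and 3. The third window had a median of 148 counts. Across the 103 segments Spearman's rho of count with distance from Igkc was -0.03, and the same by TPM. All these segments come from 1 library, so this is a description.

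Segments in the orientation of Igkc were 39 and held 48.2% of the counts (47.7 to 48.7), and the 64 in the opposite orientation held 51.8%. Their medians were 186 and 196 counts. Orientation went with position. In the second window all 25 segments had the opposite orientation, and in the farthest window 18 of 22 had that of Igkc and held 97.7% of the window's counts (97.4 to 97.9). In the first window 13 of 32 had that of Igkc and held 27.5%.

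Neighbours in the locus often differed in use. Of 69 adjacent pairs in which both segments had at least 10 counts in replicate 1, 51 differed over 2-fold. Pairs further apart were not counted for comparison, so this is not read as particular to neighbours. Spearman's rho between neighbours was 0.00 over 102 pairs. Some families cluster along the locus. The Igkv3 segments, all in the orientation of Igkc, lie between 22.3 and 207.6 kb from it. The Igkv4 segments, all in the opposite orientation, lie between 1025.1 and 1970.8 kb. Others are spread, as Igkv1 runs from 714.8 to 3115.9 kb and Igkv12 from 782.8 to 2155.2 kb. The plot of use along the locus shows high and low segments side by side in every window.

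**Figure D4:**
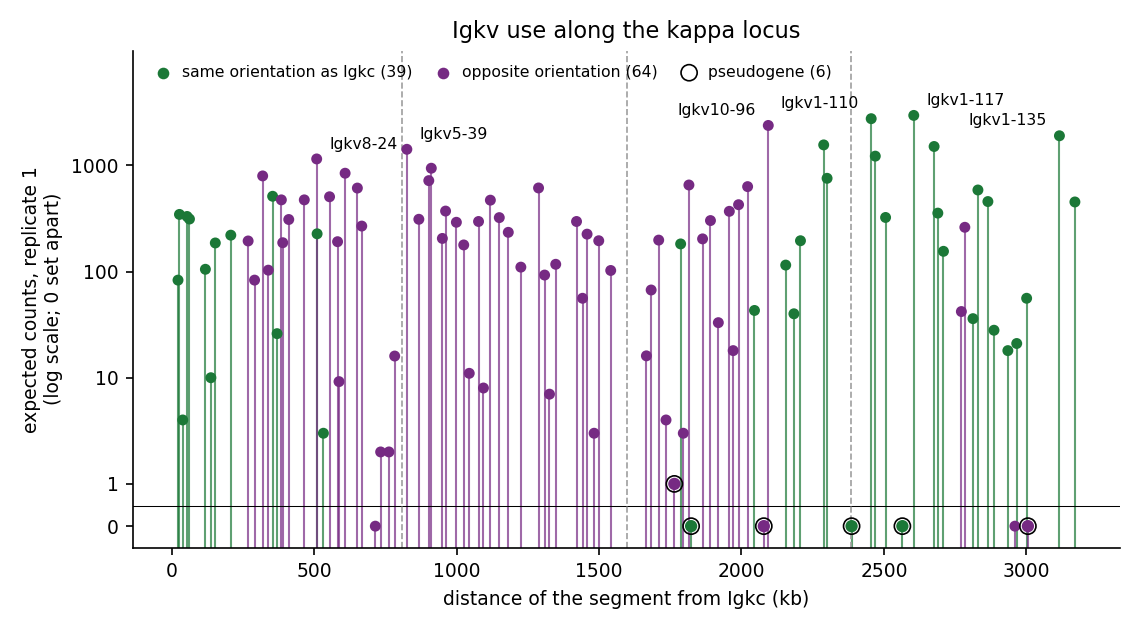
Expected counts in technical replicate 1 (y axis, log scale with 0 set apart) of each of the 103 Igkv segments by distance from Igkc in kb (x axis), coloured by orientation, with circles around the 6 pseudogenes and dashed lines between the 4 windows. Segments with over 1000 counts lie at 509.0 kb (Igkv8-24) and 825.5 kb (Igkv5-39) and from 2094.0 kb (Igkv10-96) outwards.

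The other genes of the light chain pathway were listed by role. The surrogate light chain is the stand-in used by precursor B cells before a light chain is made. Of 4 genes listed with it, Vpreb3 had 313 counts in replicate 1 and 175 in replicate 2 and was called higher at 3.28 (3.0 to 3.55). The counts of Vpreb3 are not read here as a measure of the surrogate light chain. Vpreb1 had 6 and 9 counts and was not tested, and Vpreb2 and Igll1 had 0 in both.

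The counts in the lists that follow stand beside 32.6% lower and 28.0% higher over all tested genes under TMM, and 58.5% and 14.6% under total counts. The lists are short, and nothing particular to them is read from the counts.

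Of 11 genes that cut and join the segments, 9 were tested, 1 was called higher and 3 lower, with a median of -0.91, and under total counts 0 higher and 7 lower. Rag1 had 18 counts in replicate 1 and 0 in replicate 2, and Rag2, its partner in the recombinase, had 0 in both. Dntt, which adds bases at the join, had 81 and 0 counts. Lig4, the ligase of the joining step, was called higher at 1.89 (1.55 to 2.22) under TMM and not called under total counts. Prkdc, a DNA repair kinase, was called lower at -5.28 (-6.90 to -4.05) and Xrcc5, a subunit of the Ku protein that holds DNA ends, at -3.61 (-5.24 to -2.38). The nuclease gene Dclre1c was called lower at -2.92 (-3.79 to -2.17). Hmgb1, with the highest TPM of this list, had 441.15 and 111.13 TPM and was not called at 0.63 (0.54 to 0.72). Xrcc6 had 29.85 and 2.07 TPM and was not called at -1.13 (-1.75 to -0.57) under TMM, and was called lower under total counts.

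Transcription factors and coactivators that act on light chain genes were 12, all tested, with 4 called higher, 5 lower and a median of -0.34, and under total counts 1 higher and 7 lower. Each was at 1 TPM or more in both libraries. Pax5, a factor of B cell identity, had 56.41 TPM in replicate 1 and 80.09 TPM in replicate 2 and was called higher at 3.27 (3.14 to 3.41). Pou2af1, the B cell coactivator of octamer-binding factors, had 246.54 and 7.70 TPM and was called lower at -2.55 (-2.84 to -2.28). Ikzf3 and Ikzf1, factors of the Ikaros family, were called lower at -2.95 (-3.30 to -2.62) and -2.43 (-2.65 to -2.21). Of the 4 tested genes of somatic diversification, by which B cells mutate their V segments, 1 was called higher under TMM, Ung at 2.22 (1.64 to 2.77), and 0 lower, while under total counts 0 were higher and 2 lower.

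Markers of the cells that carry light chain transcripts moved in both directions between the libraries, and their part in the V segment result was not tested. Of the 9 B cell genes 3 were called higher and 6 lower, with a median of -0.91, and the counts were the same under total counts. Cd79a, a signalling chain of the B cell receptor, had 495.53 and 504.33 TPM and was called higher at 2.50 (2.45 to 2.55). Cd79b, its partner, had 737.74 and 499.35 TPM and was called higher at 1.94 (1.88 to 1.99). Cr2, the complement receptor of B cells, had 733.51 and 62.21 TPM and was called lower at -1.39 (-1.49 to -1.29). Ms4a1, which encodes CD20, had 630.38 and 63.47 TPM and was called lower at -0.91 (-1.0 to -0.82). None of the 9 was at 0 in either library.

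Of 8 genes of plasma cells, the antibody-secreting cells in which light chain transcripts are most abundant, 4 were called higher and 0 lower, with a median of 0.60, and under total counts 3 were higher and 4 lower, with a median of -0.67. Mzb1, a chaperone of antibody assembly, had 112.55 and 215.53 TPM and was called higher at 3.46 (3.34 to 3.58). Jchain, which links secreted antibodies, had 1354.51 and 155.37 TPM and was not called at -0.64 (-0.73 to -0.56). Under TMM, erythroid genes had 5 higher and 0 lower of 5, T cell genes 1 and 3 of 7, red pulp macrophage genes 2 and 2 of 5, and early B lineage genes 0 and 1 of 2 tested. Under total counts the T cell and macrophage lists had 0 higher, with 5 and 3 lower, and the erythroid list 3 higher and 0 lower. Trac, the constant gene of the T cell receptor alpha chain, had 1028 counts in replicate 1 and 0 in replicate 2 and was called lower. The 5 erythroid genes together stood at 35968.6 TPM in replicate 1 and at 214192 TPM in replicate 2, and TPM has the same total in each library.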

How the data were processed

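Gene quantifications of both spleen libraries were used. Per the file headers, the authors deposited an expected count, a TPM and an FPKM per gene, with lengths, effective lengths and posterior estimates, which are an other measure. The genome was mm10, per the labels; the aligner and quantifier are not given in the sources used here. Rows with no Ensembl identifier held 1.09e-05% and 0.00021% of the counts and were left out. Of 43346 Ensembl rows, 42462 matched a symbol. Coordinates, classes and coding sequences came from GENCODE M21 (GRCm38).

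Expected counts were rounded, the TMM factors of edgeR 4.0.16 set the library sizes, and each ratio of replicate 2 over 1 has a Clopper-Pearson 95% interval, exact given the count over both libraries. Alternatives were DESeq2 1.42.0 size factors, total counts, TPM, FPKM, other filters, thresholds and members. Posterior mean counts were added after seeing the data. Shares have Clopper-Pearson intervals. With 1 library a side, no p-value was computed and nothing shows the spread between libraries of 1 group. Sequences were aligned with Biopython 1.88.

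The members and lists were chosen with earlier results of these data known. Named members are all Iglv, the 12 Igkv with the most counts, the leading member of each family with at least 1% of Igkv counts, every member with a count in replicate 2, 3 pseudogenes, V genes at 0, the nearest and farthest Igkv, every J and C gene, and up to 4 leading genes of each other list. Other pseudogenes, members just below the call and Igkv5-37, Igkv18-36 and Igkv6-25 were named after their values were seen, as were some list genes. Recombination signals and promoter octamers were not analysed here, and features of the coding sequence took their place. A gene of the somatic diversification list is not reported here.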

Additional observations from a re-analysis of the deposited data

Results flagged for a closer look

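In replicate 2, rows with no Ensembl identifier, which entered no comparison, held 8 counts, above the 3 counts that a count of 0 allows. In replicate 1 such rows held 3 counts.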

How the results depend on the processing

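The summed log2 ratio of the V segments stayed below the 1.5-fold threshold in every alternative run, from -14.18 as a TPM ratio to -11.12 with DESeq2 size factors, and was -12.51 under total counts. Members called lower ranged from 62 (2-fold, or a 99% interval) to 74 (total counts), against 68. Total counts moved the genes called lower from 4060 to 7294 and those called higher from 3492 to 1820. The kappa share of 88.9% was 89.4% by TPM and by FPKM and 77.6% on Igkc against Iglc2. The Igkv1 share of 21.6% was 19.6% by TPM and 14.8% without Igkv1-117, and Igkv1 and Igkv4 held the first and second place throughout. The farthest window held 41.7% when the windows had equal numbers of segments, 32.8% by TPM and 29.5% without Igkv1-117. Leaving out the pseudogenes, or using posterior mean counts, changed none of these shares beyond counting error. With 88 members at 10 counts or more and 95 at 1 TPM or more, detection in replicate 1 depended little on the limit. The 1 count in replicate 2 gives no description of use there. No paired analysis was possible because each group is 1 library.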
